A study of Mus musculus with 4 samples.

Results

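Among 25413 genes counted in EpH4 cells, 4258 carry only a provisional name, either a predicted-gene number ("Gm" and digits) or a RIKEN clone name ending in "Rik". The genes described here are the 544 of these 4258 whose mean over the 4 libraries was at least 1 CPM (the count over the library total, scaled so that each library sums alike). There were 390 Gm genes and 154 Riken genes, on 20 chromosomes. They were chosen by their name and their measured level averaged over both groups, so the level itself is given as a description. EpH4 is a mouse mammary epithelial line, here wildtype and grown in 2D culture. Both groups share that line and culture. The 2 Control libraries came from cells left untreated, and the 2 PM2.5 libraries from cells given PM2.5, particulate matter of the fine airborne class, at a dose and for a time that the labels do not state. The labels do not say that replicates were separate cultures, so every p-value below measures only how far these libraries spread, and that spread may be technical.

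A provisional name marks a gene that was found from sequence rather than from function. Predicted-gene numbers were given to loci proposed by annotation pipelines or curators, and Riken names to full-length cDNA clones that matched no known gene. Several kinds of locus share these names: mostly single-exon transcripts that curators marked TEC, for loci awaiting experimental proof, models that join the exons of adjacent genes (conjoined or readthrough transcripts), recent zinc finger duplicates of the KRAB kind, which bind DNA and mostly repress it, and pseudogenes copied from a parent gene. They can arise from the start sites, introns and 3′ ends of named genes, so each is placed here by its neighbours on the GRCm39 build.

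By the GENCODE M21 annotation, which held 540 of the 544 gene identifiers, 287 were TEC genes, and 283 of those had a single exon. A further 52 spanned 2 or more named genes on their own strand and are called conjoined below, and 50 others encoded at least 3 C2H2 zinc finger repeats. The remaining 155 were mainly protein-coding models. This division into 4 classes was made after the values were seen. Relative to named genes, 181 members lay apart, 90 lay inside one on the same strand, 40 inside one on the opposite strand and 88 overlapped one in part. Another 47 started within 1 kb of a named gene's start, facing away from it (head to head), and 46 began within 10 kb past a named gene's end on its strand.

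RefSeq listed promoters for 173 of the 544. Those of 4 genes of a duplicated X-linked group are shown because near-identical windows stand before genes that differed in direction. Those of 4921536K21Rik and 6430550D23Rik are shown because each faces a named gene within 1 kb. Each sequence is the 250 bases before the RefSeq start on GRCm38.p6, read 5′ to 3′ on the gene's strand. Capitals mark GCGTG, or CACGC where it lies on the other strand, the core bound by the aryl hydrocarbon receptor. The windows are chrX:149941405-149941654 (+) for Gm15091, chrX:149447367-149447616 (+) for Gm15085, chrX:148663354-148663603 (+) for Gm15127, chrX:148180474-148180723 (+) for Gm15107, chr11:3895127-3895376 (-) for 4921536K21Rik and chr2:156007978-156008227 (-) for 6430550D23Rik.
Gm15091: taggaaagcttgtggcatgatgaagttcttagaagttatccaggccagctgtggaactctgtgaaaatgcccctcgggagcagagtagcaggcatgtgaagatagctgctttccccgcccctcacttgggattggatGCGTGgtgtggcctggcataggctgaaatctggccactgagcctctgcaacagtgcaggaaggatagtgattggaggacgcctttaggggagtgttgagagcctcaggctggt
Gm15085: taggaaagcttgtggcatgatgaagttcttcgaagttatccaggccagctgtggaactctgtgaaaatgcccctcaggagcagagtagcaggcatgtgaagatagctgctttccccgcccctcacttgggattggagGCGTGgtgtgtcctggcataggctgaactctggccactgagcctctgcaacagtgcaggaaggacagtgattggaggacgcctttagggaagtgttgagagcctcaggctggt
Gm15127: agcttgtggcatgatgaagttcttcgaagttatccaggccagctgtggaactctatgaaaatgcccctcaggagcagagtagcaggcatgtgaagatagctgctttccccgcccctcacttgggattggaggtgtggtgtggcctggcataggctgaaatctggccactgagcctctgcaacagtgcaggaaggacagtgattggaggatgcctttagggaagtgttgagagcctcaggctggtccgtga
Gm15107: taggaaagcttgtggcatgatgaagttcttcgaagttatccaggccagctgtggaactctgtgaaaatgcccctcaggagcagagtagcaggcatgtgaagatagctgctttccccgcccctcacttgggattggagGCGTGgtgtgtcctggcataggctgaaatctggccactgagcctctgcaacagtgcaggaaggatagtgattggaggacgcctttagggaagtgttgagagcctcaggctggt
4921536K21Rik: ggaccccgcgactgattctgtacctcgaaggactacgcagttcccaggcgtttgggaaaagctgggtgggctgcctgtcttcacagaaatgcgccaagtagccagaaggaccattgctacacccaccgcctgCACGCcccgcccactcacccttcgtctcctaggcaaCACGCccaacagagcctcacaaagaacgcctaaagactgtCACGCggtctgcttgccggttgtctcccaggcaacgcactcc
6430550D23Rik: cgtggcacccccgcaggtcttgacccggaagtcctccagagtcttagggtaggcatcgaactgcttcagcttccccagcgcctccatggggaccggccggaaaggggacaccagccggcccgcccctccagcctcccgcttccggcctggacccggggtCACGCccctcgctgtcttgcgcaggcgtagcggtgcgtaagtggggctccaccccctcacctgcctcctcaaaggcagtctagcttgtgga
The Gm15091 window was 97.2% identical to that of Gm15085, 98% to that of Gm15107 and 92.2% to that of Gm15127. The window of Gm15097, a further gene of the group that fell, was 76.5% identical to it and is not printed. The core was found on either strand in 75 of 207 promoter windows of the members (36.2%) and in 28.2% of all 32851 RefSeq windows of that length. The median number of CG dinucleotides per window was 9 in the members and 6 in all. The match describes letters and not a bound site.

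Total counts per library ran from 18548478 to 26206329, and the members took 0.683% to 0.746% of them. A count of 3 corresponded to 0.114 to 0.162 CPM. The epithelial label was checked by markers: 8 of 9 epithelial markers were under 1 CPM and 6 of the 9, Epcam and Krt18 among them, were at 0 in every library. The summed epithelial level, nearly all from Krt14, was 51.8 and 50.4 CPM in Control and 21.8 and 20.2 in PM2.5. The mesenchymal markers summed to 8245 and 8950 CPM in Control and 6165 and 6765 in PM2.5. The 5 leukocyte markers summed to 3.68 and 4.39 CPM in Control and 9.34 and 11.1 in PM2.5, nearly all from Cd68, with 4 of 5 under 1 CPM. All 3 endothelial markers were under 1 CPM. In bulk RNA, fewer cells of a type and less RNA per cell cannot be told apart, and the part these shifts have in the results below was not tested.

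Most members were weakly expressed. The median level was 3.74 CPM, against 40.5 for the 11115 named genes that also reached 1 CPM. The highest level was that of 2310022B05Rik, with 5441 and 7703 counts in Control and 5548 and 5558 in PM2.5 (292 ± 8.91 against 281 ± 16.8 CPM, SD, n = 2). Of 11 members above 100 CPM on average, the next 5 in level were 9530068E07Rik (272 ± 9.56 against 257 ± 3.17), B230219D22Rik (207 ± 3.68 against 218 ± 2.65), Gm14418 (194 ± 1.68 against 207 ± 11.6), Gm49909 (209 ± 45.1 against 179 ± 7.47) and 5031439G07Rik (123 ± 5.26 against 121 ± 3.50). None of these 6 passed the test, and their log2 fold changes lay between -0.22 and 0.09. The 40 named genes around 2310022B05Rik had a median log2 fold change of -0.30, against -0.06 for the gene itself. With that median taken off as a fixed value, 2310022B05Rik stood at 0.24 (edgeR adjusted p = 0.011). This p-value leaves out the spread among the 40 genes, so it does not measure the difference from them.

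Per kilobase of transcript, the order changed. Gm49909, a model joining the adjacent myosin light chain genes Myl12b and Myl12a, had the highest mean RPKM (136, the deposited length-scaled unit). It was followed by Gm37376 (101), 9530068E07Rik (89.8), Gm10053 (87.2), 2310022B05Rik (72.7) and 1810009A15Rik (65.5). Gm37376 is a TEC gene whose whole transcript matched transcripts of Malat1, an abundant nuclear RNA, at 99.8% identity. Gm10053 is a pseudogene whose whole transcript matched Cycs, the cytochrome c gene, at 99.9% identity. Reads of such copies may be shared with the named gene, so their levels are uncertain. Gm10053 fell from 112 ± 10.7 to 85.2 ± 4.57 CPM (log2 fold change -0.39, SE 0.08, adjusted p = 0.00235).

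The comparison of PM2.5 with Control asks which of these transcripts differ after exposure to particulate matter. Of 543 members tested, 96 rose and 29 fell, and 418 did not pass. The test called 39.6% of all 12478 genes, 19.2% higher and 20.4% lower. The members' shares were 17.7% higher and 5.34% lower, and their median log2 fold change was 0.18 against 0.01 for all genes tested. Both PM2.5 libraries lay on the same side of both Control libraries in 316 of the 543 members tested, all 125 called members among them. Groups were separate in this way in 8870 of all 12478 genes tested (71.1%). Among the called members, 30 rose and 7 fell by more than 2-fold, out of 543 tested. Among all 12478 genes tested, 574 called genes rose and 146 fell by more than 2-fold. One library bears on the count of rises, which was 51 without PM2.5 replicate 1. DESeq2 called 40 members higher and 13 lower.

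Level enters that count. Having passed 1 CPM on average, 51 members had a Control mean under 1 CPM and 13 had a PM2.5 mean under it. Of these 64, 24 were called, where the test called 39.6% of all genes. A member that passed through 1 group alone had to differ, so the counts describe the members and support nothing. The member left untested, Gm2004 of the zinc finger cluster described below, had 5 and 3 counts in Control and 8 and 95 in PM2.5. The members just inside the threshold were Gm44509 (12, 18, 23 and 29 counts in Control 1, Control 2, PM2.5 1 and PM2.5 2) and 5730521K06Rik (26, 23, 16 and 19). Just outside lay Gm42748 (11, 24, 32 and 17 counts) and Gm27680 (15, 18, 30 and 19).

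TEC genes, mostly single-exon transcripts with no assigned product, made up 287 of the 543 members tested and 60 of the 96 rises. Of these 287, 60 rose (20.9%) and 6 fell (2.09%), against 19.2% and 20.4% of all genes tested, and their median log2 fold change was 0.28. The share of rises is thus near that of all genes. The zinc finger members had 9 rises and 4 falls among 49 tested (median 0.09), the conjoined members 6 and 7 among 52 (median 0.03) and the remaining members 21 and 12 among 155 (median 0.05). With 1 library left out, rises and falls ranged from 5 to 13 and 1 to 4 for zinc finger members, 3 to 10 and 6 to 10 for conjoined members, and 14 to 22 and 9 to 12 for the remaining members, with the fewest rises without PM2.5 replicate 1 (conjoined) or PM2.5 replicate 2 (the other two). Summed over the 287 TEC genes, the level was 1151 and 1226 CPM in Control and 1451 and 1421 in PM2.5, so both PM2.5 libraries lay above both Control libraries. The counts for TEC genes moved with the tool and the library. DESeq2 called 20 higher and 1 lower, against 12.7% higher and 15.5% lower over all genes, and it called 5 and 2 zinc finger and 2 and 2 conjoined members. By edgeR the rises among TEC genes were 36 without Control replicate 1, 26 without PM2.5 replicate 1 and 37 when PM2.5 replicate 2 was left out, and falls were 2 without PM2.5 replicate 1 and 3 without Control replicate 2.

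Weakly expressed named genes also leaned upward. Between 1 and 2 CPM, the median log2 fold change was 0.40 for 452 named genes and 0.33 for 116 TEC genes. Between 2 and 5 CPM it was 0.19 for 676 named genes and 0.32 for 98 TEC genes, and between 5 and 20 CPM it was 0.09 for 2213 named genes and 0.24 for 66 TEC genes. Calls in the lowest of these ranges were 28.8% higher and 5.97% lower among named genes, and 15.5% higher and 0.86% lower among TEC genes. A second quantity also differed by group. The deposited total gene reads exceed the counts, by a difference that the file headers do not define. That excess was 9.81% and 10.5% of total gene reads in Control and 11.7% and 11.6% in PM2.5 over all genes, and 3.10% to 3.91% over the TEC members alone. Over the other members the excess was larger, at 28.8% and 31.5% in Control and 35.8% and 36.4% in PM2.5. The part of the excess in the rise of the TEC genes was not tested.

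**Figure D1:**
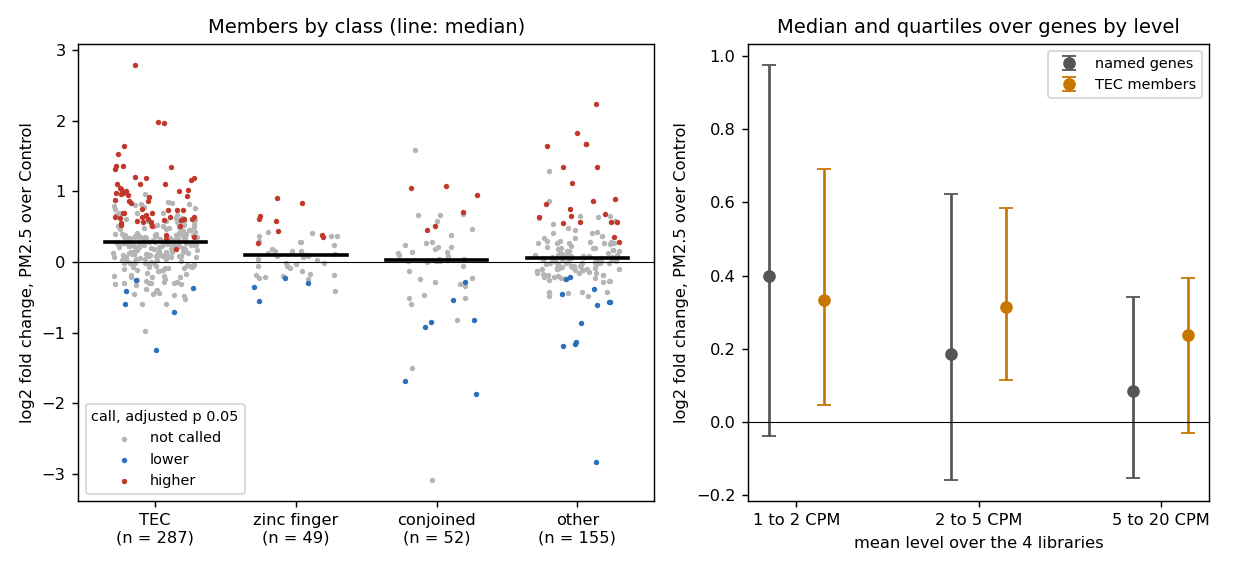
The left panel plots the log2 fold change of PM2.5 over Control (vertical axis) for each tested member in 4 classes, coloured by call at an adjusted p of 0.05, with a line at the class median. The right panel plots medians with quartiles for named genes and TEC members in 3 ranges of mean CPM. TEC members centre at 0.28 and the other classes near 0, and named genes below 2 CPM centre at 0.40.

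Counts are given for TEC genes by position, to be read against 19.2% higher and 20.4% lower over all genes tested. Of the 62 that lay apart from named genes, 19 rose and 2 fell (median log2 fold change 0.37). Of 33 inside a named gene on its opposite strand, 9 rose and 2 fell (0.40), and of 34 head to head with a named gene 9 rose and 0 fell (0.30). Of the 87 inside a named gene on its own strand, 8 rose and 1 fell (0.20), though these also had the lowest median level among the positions (1.84 CPM). In 77 of those 87 the M21 models showed no overlap with exons of named genes on their strand, and 76 of them lay wholly within the M21 span of such a gene. DESeq2 called 6 of the 62 higher, 2 of the 33, 2 of the 34 and 3 of the 87. The edgeR counts also moved with the libraries kept: with 1 library left out, rises ranged from 10 to 13 for genes lying apart, 3 to 8 on the opposite strand, 2 to 5 head to head and 3 to 7 on the same strand, lowest or joint lowest without PM2.5 replicate 1 in each. No test compared the positions. The change of each gene was also ranked against that of its nearest tested named gene, which need not be the gene it lies in. This rank correlation was 0.44 across the 33 opposite-strand TEC genes, 0.33 across the 87 on the same strand and 0.05 across the 62 lying apart. Over all genes tested it was 0.24. Both genes of a pair come from the same 4 libraries and, where they overlap, possibly from shared reads, since whether counting used strand is not stated.

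The largest rise was that of Gm47585 (chr13:63421414-63423725), a TEC gene within Aopep, which encodes an aminopeptidase. Its Control mean was 0.29 CPM, so Gm47585 became a member through PM2.5 alone. So did Gm35048 (Control mean 0.86 CPM), Gm42944 (0.43), Gm5447 (0.69), Gm16867 (0.84) and 4930523C07Rik (0.54), described next. Such members had to differ, so their values describe them and support nothing. Gm47585 had 6 and 7 counts in Control and 48 and 33 in PM2.5. Both PM2.5 libraries stood several times above both Control libraries. The log2 fold change was 2.79 (SE 0.40, adjusted p = 0.000403), and Aopep itself rose by less (1.26, SE 0.09, adjusted p = 5.33e-06).

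Gm35048 (chr1:90448218-90451019) lies between Cops8, a subunit of the COP9 signalosome, and Ackr3, a scavenging receptor for the chemokine CXCL12. Its counts were 12 and 28 in Control and 64 and 76 in PM2.5, and it rose by 1.98 (SE 0.30, adjusted p = 0.000577). Cops8 did not pass the test (0.01), while Ackr3 rose by 1.75. Gm42944 (chr3:18676326-18680305), a TEC gene far from any named gene, had 6 and 14 counts in Control and 39 and 31 in PM2.5 and rose by 1.97 (SE 0.38, adjusted p = 0.00224).

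Gm5447 (chr13:31158147-31160231) starts 70 bases from the start of Exoc2, a subunit of the exocyst that tethers secretory vesicles. Its counts were 13 and 18 in Control and 50 and 48 in PM2.5, a rise of 1.83 (SE 0.30, adjusted p = 0.000854), with replicates close together in both groups. Exoc2 did not pass (0.21, adjusted p = 0.0512). A530016L24Rik (chr12:112455882-112466361) had 21 and 31 counts in Control and 86 and 61 in PM2.5 and rose by 1.67 (SE 0.26, adjusted p = 0.000677). Its neighbour Tmem179, 261 bases away, rose by 1.80, so this pair moved together.

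Gm16867 (chr14:69600953-69740811) overlaps Entpd4, a nucleotide-hydrolysing enzyme of the secretory pathway. It had 15 and 23 counts in Control and 66 and 41 in PM2.5 and rose by 1.66 (SE 0.32, adjusted p = 0.00221). Entpd4 and its duplicate Entpd4b rose by 0.70 and 0.63. The last of the 8 largest rises was 4930523C07Rik (chr1:159871952-159907778), with 13 and 10 counts in Control and 31 and 33 in PM2.5 (1.64, SE 0.38, adjusted p = 0.00636). Without Control replicate 2 it no longer passed.

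The largest fall was that of A930007A09Rik (chr16:13572430-13576401), a RefSeq protein-coding model between Rrn3, a factor for transcription by RNA polymerase I, and Bfar. Its PM2.5 mean was 0.25 CPM, so A930007A09Rik became a member through Control alone. So did Gm44220 (PM2.5 mean 0.66 CPM), 4921536K21Rik (0.70) and, among the conjoined members below, Gm49359 (0.63). These too had to differ. A930007A09Rik had 34 and 48 counts in Control and 7 and 3 in PM2.5. The log2 fold change was -2.83 (SE 0.43, adjusted p = 0.000553), and the Control libraries lay well above the PM2.5 libraries. Rrn3 and Bfar also fell, by 0.44 and 0.38 on the log2 scale. Gm44220 (chr6:93218701-93221187), a TEC gene whose nearest named gene is Adamts9, a secreted metalloproteinase, had 30 and 40 counts in Control and 11 and 15 in PM2.5. It fell by 1.24 (SE 0.35, adjusted p = 0.0169), and Adamts9 fell by 1.01. Without PM2.5 replicate 1, and with DESeq2, Gm44220 no longer passed.

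4921536K21Rik (chr11:3836088-3845098), whose promoter is printed above, starts 141 bases from Dusp18, a dual-specificity phosphatase. Its counts were 29 and 44 in Control and 17 and 11 in PM2.5, a fall of 1.20 (SE 0.34, adjusted p = 0.0180). Dusp18 fell by 0.46 and the gene on the other side, Morc2a, by 1.005. Set against its 40 named neighbours, or without Control replicate 2 or PM2.5 replicate 2, or with DESeq2, 4921536K21Rik no longer passed.

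**Figure D2:**
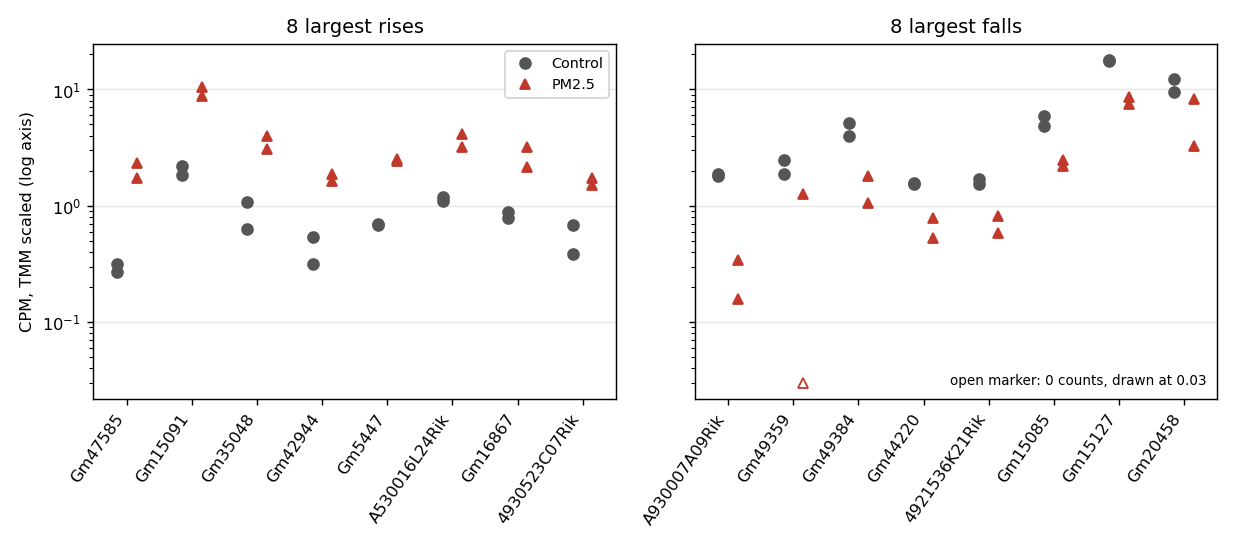
TMM-scaled CPM on a log axis in each Control library (circles) and each PM2.5 library (triangles) for the members with the 8 largest rises and 8 largest falls, from left to right by size. Groups that do not overlap were a condition for choosing these 16. Gm49359 has 1 PM2.5 library with 0 counts, drawn open.

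Both directions occurred within one duplicated group on the X chromosome. Gm15128, Gm15107, Gm15127, Gm15085, Gm15097 and Gm15091 lie in this order from chrX:146548987 to chrX:148767978. Gm15091 had 35 and 57 counts in Control and 215 and 167 in PM2.5, and rose from 2.02 ± 0.26 to 9.61 ± 1.15 CPM (log2 fold change 2.23, SE 0.19, adjusted p = 1.48e-05). The other called genes of the group moved the opposite way. Gm15127 had 340 and 450 counts in Control and 154 and 164 in PM2.5 (-1.13, SE 0.12, adjusted p = 5.33e-05). Gm15085 had 112 and 124 against 51 and 42 (-1.17, SE 0.21, adjusted p = 0.00146), and Gm15097 had 393 and 589 against 332 and 250 (-0.57, SE 0.12, adjusted p = 0.00313). Gm15128 and Gm15107 did not pass (-0.25 and -0.17). In the nearest named genes, Ott and Luzp4 fell by 0.79 and 0.74 and Vcf2 did not pass (-0.11). The 6 transcripts were 98.2% to 99.7% identical to one another in M21, highest for the pair Gm15127 and Gm15091, so how reads were assigned among the copies bears on each of these values and was not tested.

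The other large group was the zinc finger cluster of distal chromosome 2, where 27 members stand within 2.75 Mb (chr2:174852002-177599090), interleaved with 11 tested named genes of the same kind. KRAB zinc finger genes multiply by tandem duplication, and their proteins recognise DNA elements such as transposons. Of 26 members tested there, 7 rose (26.9%) and 1 fell (3.85%), against 19.2% and 20.4% of all genes tested. Their median log2 fold change was 0.15. Gm14412 rose from 751 and 1051 counts to 1319 and 1065 (40.1 ± 0.90 to 60.0 ± 5.55 CPM, log2 fold change 0.58, adjusted p = 0.000269). Gm2026 had 128 and 299 counts in Control and 376 and 324 in PM2.5 (0.91, SE 0.19, adjusted p = 0.00337), with the Control libraries far apart. Gm14308 rose by 0.84, Gm14288 by 0.65, Gm14393 by 0.61, Gm14406 by 0.44 and Gm14296 by 0.38. The fall was that of 2210418O10Rik, from 68.1 ± 7.33 to 53.1 ± 1.03 CPM (-0.36, SE 0.08, adjusted p = 0.00545). Of the 11 named genes, Zfp969 (0.61), Zfp1003 (0.32) and Zfp1010 (0.29) rose and 0 fell. Without Control replicate 2 the rises among members numbered 11, and Gm14393 no longer passed. Gm14393 and Gm14296 lost their call without PM2.5 replicate 1, Gm14393 and Gm14308 without PM2.5 replicate 2, and Gm14308 without Control replicate 1. These members are named because they were called in this cluster, which was singled out after their values were seen.

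Copies limit these values too. At least 50% of the transcript matched transcripts of another gene at 95% identity or more in 23 of the 50 zinc finger members. The same held in 21 of 287 TEC members and 47 of 152 in the remaining class. These matches include named genes overlapping at the same locus, such as Sbno1 for Gm37415 (52.0%) and Lbhd1 for 1810009A15Rik (67.3%). They are thus not counts of duplicated genes, and the classes cannot be compared on duplication by them. The M21 transcript of 2210418O10Rik matched that of Gm14296 in full at 100% identity, and these genes moved in opposite directions. Elsewhere in the genome, 2 of 23 zinc finger members rose (8.70%) and 3 fell (13.0%), with a median of 0.03. The shares over all genes tested were 19.2% and 20.4%.

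**Figure D3:**
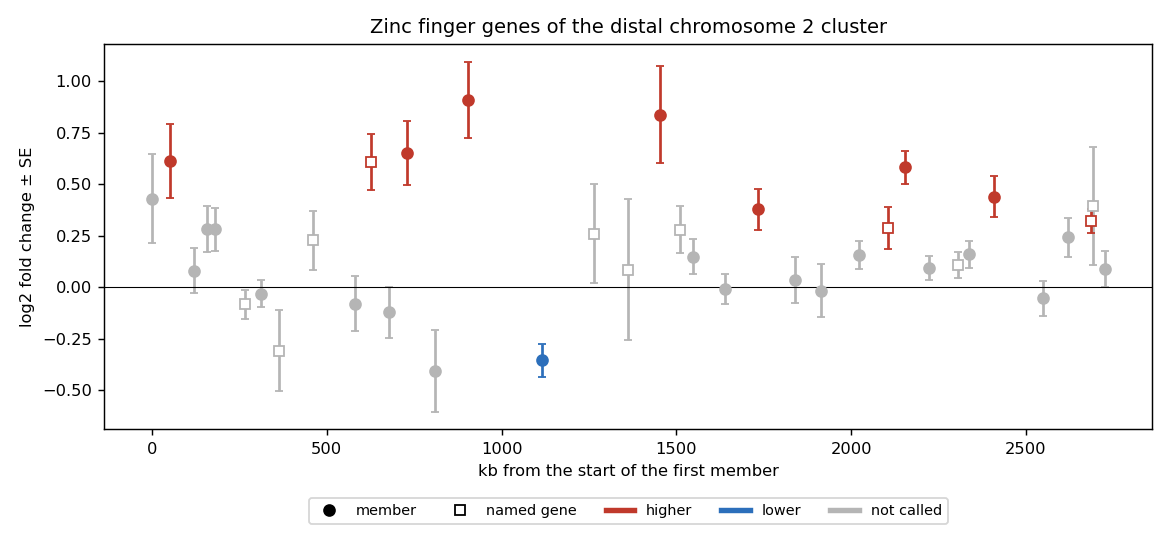
Log2 fold change ± SE from edgeR (vertical axis) against distance in kb from the start of the first member (horizontal axis) for 26 members (circles) and 11 named genes (open squares) of the chromosome 2 cluster, coloured by call. The 7 members that rose are spread along the cluster among members near 0.

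Conjoined members were set apart by their spread between replicates. A conjoined model joins exons of adjacent genes, and a median of 99.2% of its exonic bases lay in exons of named genes, with 90% or more in 36 of 51. Replicates of at least 1 group were over 2-fold apart in 15 of the 52 conjoined members (28.8%), in 13 of 287 TEC members, 1 of 50 zinc finger members and 7 of the remaining 155, and in 0.87% of named genes that reached 1 CPM. Level enters these shares. Between 1 and 2 CPM, replicates were this far apart in 12.8% of named genes and 10.3% of TEC members. Between 2 and 5 CPM the shares were 4.29% and 1.02%, and between 5 and 20 CPM they were 0.23% and 0%. Counts of 0 in a library occurred in 5 members, all conjoined. Gm28635, which spans Ctnnd1, Selenoh and Tmx2, had 52 and 0 counts in Control and 56 and 0 in PM2.5. Gm49804 had 93 and 67 against 0 and 50, Gm28778 had 30 and 28 against 0 and 29, and Gm49378 had 0 and 35 against 70 and 23. Gm45837 reached 303 in Control replicate 1 but had 11, 30 and 4 in Control replicate 2 and the PM2.5 libraries. Of the 105 named genes under conjoined models, 10 had replicates over 2-fold apart. Most of these 10 had few counts, such as Zglp1 (0 and 8 in Control, 0 and 9 in PM2.5) and Prickle4 (1 and 6, then 8 and 7). Pagr1a under Gm42742 had 1 and 80 counts in Control and 87 and 84 in PM2.5. Arap1, under Gm45837, had 457 and 721 counts in Control and 538 and 516 in PM2.5. These genes were chosen after their values were seen.

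Among the 13 conjoined members that were called, 7 had at least 1 called joined gene of the same direction and none of the opposite one, 2 had the reverse (Gm20458 and Gm49359), and in the remaining 4 members no joined gene passed. Gm49384 (chr12:69236613-69251041) joins Dnaaf2, a factor for assembling dynein arms of cilia, to Pole2, a subunit of DNA polymerase epsilon. It had 76 and 133 counts in Control and 37 and 20 in PM2.5, a fall of 1.69 (SE 0.27, adjusted p = 0.000808), while Dnaaf2 (-0.01) and Pole2 (-0.19) did not pass. Gm20458 (chr2:164302887-164332680) had 235 and 246 counts in Control and 67 and 158 in PM2.5 (-0.92, SE 0.30, adjusted p = 0.030), whereas Sys1 and Dbndd2, which it joins, rose by 0.41 and 0.63. Gm49359 (chr13:62601529-62706325), over Zfp935 and Zfp934, had 36 and 64 counts in Control and 0 and 24 in PM2.5 (-1.87, SE 0.64, adjusted p = 0.0380). Gm20458 and Gm49359 both lost their call without PM2.5 replicate 1, with no filter and with DESeq2, Gm20458 also without Control replicate 1 and Gm49359 also without Control replicate 2.

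Other conjoined members rose with one of their genes. Gm21970, over the cytokine receptor genes Ifnar2 and Il10rb, had 118 and 153 counts in Control and 216 and 279 in PM2.5 (1.05, SE 0.17, adjusted p = 0.000940). Ifnar2 rose by 0.53 and Il10rb did not pass (0.09). Gm45799, over Timm10b and Dnhd1, had 58 and 65 counts in Control and 121 and 108 in PM2.5 (1.07, SE 0.19, adjusted p = 0.00132). Dnhd1 rose by 1.67 and Timm10b did not pass (-0.12). Both were chosen after their values were seen. Since conjoined models share nearly all exonic bases with named genes, how shared reads were divided can move them, and this was not tested. With total gene reads in place of counts, Gm49384 (-0.06) and Gm20458 no longer passed, and Gm20458 did not pass by limma-trend on RPKM either. Gm49384 had 6.65 total gene reads for each count.

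**Figure D4:**
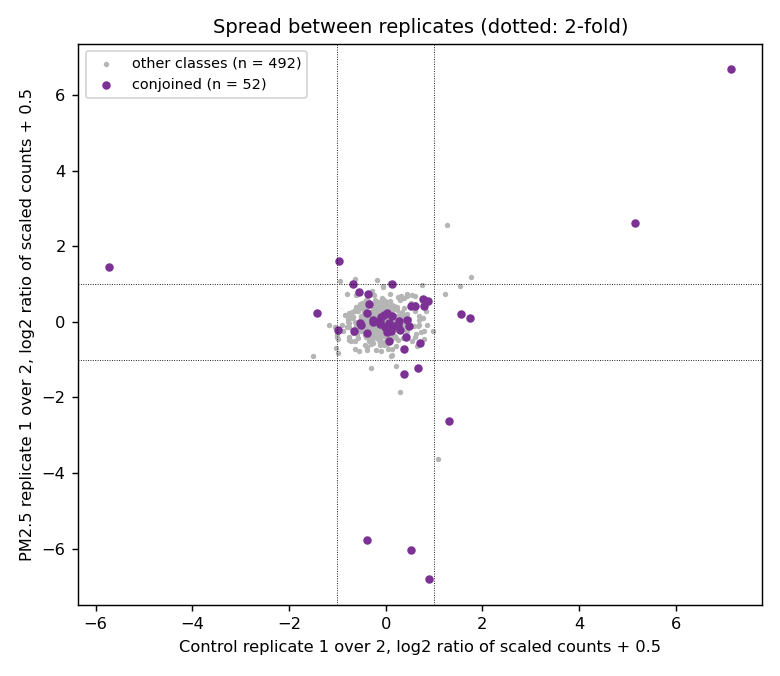
Each point is a member, with the log2 ratio of replicate 1 to replicate 2 of scaled counts (0.5 added) in Control on the horizontal axis and in PM2.5 on the vertical axis; dotted lines mark 2-fold. Most of the 492 other members lie inside the lines, and the points beyond 4 on either axis are all conjoined members (purple).

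Each tested gene was also compared with its nearest tested named gene within each library, which removes library scaling. Relative to that neighbour, 64 members rose and 27 fell by limma, and over all genes 28.6% passed this test, 14.7% higher and 13.9% lower. These counts rested on single libraries: without PM2.5 replicate 1 they were 22 and 11, leaving out PM2.5 replicate 2 made them 14 and 13, and without Control replicate 2 they were 87 and 42. With the neighbour on the other side they were 64 and 48. Several of the largest relative changes came from the neighbour rather than the member. Some of these neighbours had few counts. 1110038F14Rik had 381 and 516 counts in Control and 402 and 393 in PM2.5, with a log2 fold change of 0.00. Zfp647 beside it fell by 2.57, from 26 and 29 counts to 7 and 1 (relative change 2.40, limma adjusted p = 0.0107). Gm38056, a TEC gene inside Plcl1, a phospholipase C-like protein, did not pass (0.23). Plcl1 fell by 2.27, from 27 and 34 counts to 7 and 4 (relative change 2.27, limma adjusted p = 0.00415).

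Gm28539 moved against its neighbour, and the next genes differed from theirs in size. Gm28539 (chr16:18655334-18774997), which overlaps the histone chaperone gene Hira, had 25 and 53 counts in Control and 101 and 74 in PM2.5. It rose by 1.34 (SE 0.25, adjusted p = 0.00202) while Hira fell by 0.62 (relative change 1.98, limma adjusted p = 0.00118). Since 93.3% of its transcript matched Hira transcripts, shared reads bear on it. Gm4841 stayed level (33 and 48 against 28 and 43 counts, log2 fold change -0.01). Iigp1 beside it, an interferon-induced GTPase, rose by 1.78, from 13 and 25 counts to 51 and 65. Gm57854, inside Tlcd3b on the opposite strand and 38 bases from the aldolase gene Aldoa, did not pass (0.65, adjusted p = 0.0598). Tlcd3b rose by 2.82, from 3 and 4 counts to 23 and 22. The remaining largest relative changes belong to Gm15091 (2.31) and Gm35048 (1.95) above their neighbour, and to Gm49359 (-2.96), A930007A09Rik (-2.09) and Gm49384 (-1.65) below it.

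**Figure D5:**
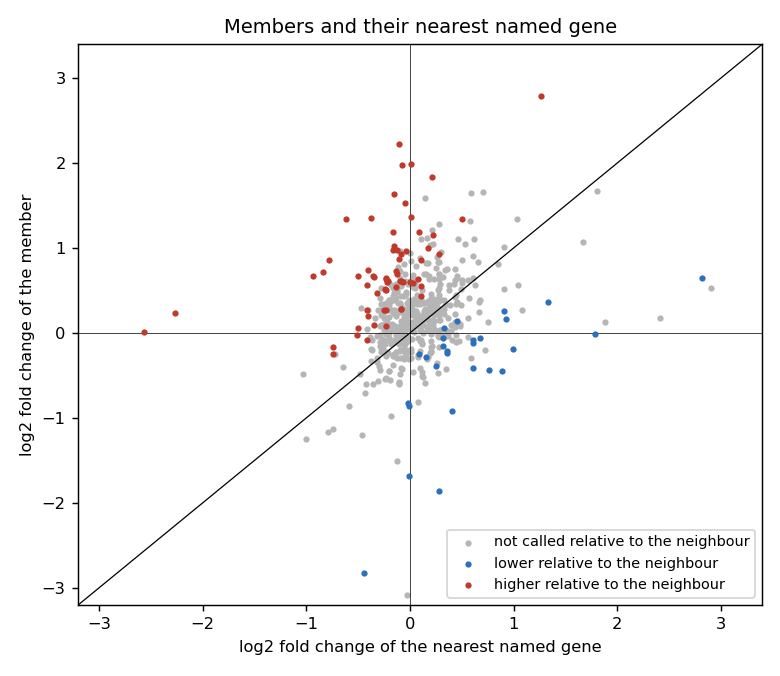
The log2 fold change of each member (vertical axis) against that of its nearest tested named gene (horizontal axis), with the line of equality, coloured by the call of the relative change. Rises relative to the neighbour lie above the line and include members near 0 beside a falling gene, such as Gm38056 beside Plcl1 at -2.27.

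Head-to-head placement brings a pair of start sites close together, as at promoters that are transcribed both ways. Of the 4 called members closest to a facing named start, Gm32699 lies 23 bases from Rala, a small GTPase. It had 183 and 203 counts in Control and 292 and 228 in PM2.5 (0.60, SE 0.14, adjusted p = 0.00724), and Rala had a log2 fold change of 0.00. 4933417C20Rik, 67 bases from Cacybp, a calcyclin-binding protein, had 137 and 155 counts in Control and 200 and 170 in PM2.5 (0.51, adjusted p = 0.0180), and Cacybp fell by 0.24. 4921534A09Rik, 56 bases from Zfp560, rose by 0.51 (adjusted p = 0.0408) while Zfp560 did not pass (-0.23). 6430550D23Rik lies 67 bases from Ergic3, a protein that cycles between endoplasmic reticulum and Golgi. 6430550D23Rik had 14 and 36 counts in Control and 42 and 40 in PM2.5 (0.89, adjusted p = 0.0487), and Ergic3 rose by 0.35. The member also overlaps Cep250 in part on the opposite strand, and 47.7% of its transcript matched Cep250 transcripts. Cep250 rose by 0.26 (adjusted p = 0.00691), and the part of shared reads was not tested. Without PM2.5 replicate 1, none of these 4 passed. 4921534A09Rik and 6430550D23Rik were also lost without Control replicate 1 or PM2.5 replicate 2, and 4933417C20Rik without Control replicate 2. With DESeq2 these 3 did not pass, 4921534A09Rik also failed with limma-voom, and 6430550D23Rik with median-ratio scaling. Relative to the facing gene, limma called Gm32699 (0.58, adjusted p = 0.0152), 4933417C20Rik (0.74, adjusted p = 0.00655) and 4921534A09Rik (0.75, adjusted p = 0.0183).

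Total gene reads exceeded the count most for Gm26992, by a ratio of 83.6. Its transcript matched Xist, the RNA of X inactivation, over 93.4% of its length. Its counts were 186 and 291 in Control and 301 and 319 in PM2.5, a rise of 0.56 (SE 0.13, adjusted p = 0.00512). The next highest ratios were those of 3300002I08Rik (24.7) and Gm21992 (18.8), a model joining the RNA-binding protein genes Rbm4 and Rbm14, and neither passed the test.

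By chromosome, the members' median log2 fold change ranged from -0.20 on chromosome 17 (17 members) to 0.36 on chromosome 1 (40 members, of which 11 rose and 0 fell). Named genes had medians between -0.27 on chromosome 16 and 0.21 on chromosome 19. On chromosome 1 the named genes' median was 0.06. With every gene set against its 40 nearest named genes, 82 members were called higher and 31 lower, and that fit called 16.8% of all genes higher and 15.1% lower. It takes the median of the 40 as a fixed value and leaves out their spread.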

How the data were processed

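RNA was measured in 4 libraries made from 750 ng of total RNA each with a stranded polyA kit, per the labels' protocols. The authors deposited gene counts with no normalization, and RPKM values from them, scaled to length and library size, were deposited by the authors too. Total gene reads, a further deposited count, are not defined in the file headers. Positions are on GRCm39, per the submitters' processing notes; the aligner is not given in the sources used here, nor are the counter and its use of strand. No per-sample columns beyond these were left out.

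Counts were tested with edgeR 4.0.16 in R 4.3.3 (quasi-likelihood, TMM, filterByExpr, Benjamini-Hochberg over 12478 genes, threshold 0.05, no pairing). Adjusted p-values without another name are edgeR's. CPM in group values is TMM scaled, as mean ± SD over 2 libraries, and log2 fold changes are PM2.5 over Control. SE was taken from the F statistic, as the size of the log2 fold change divided by its root. Changes relative to the nearest named gene used limma 3.58.1 on differences of log2 CPM (prior count 2), with the spread's trend on the lower of the pair's levels. Both tests were tested on simulated data.

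Members, lists and classes were chosen with earlier results of these data known. The naming rule took the 8 largest rises and falls among called members with separate groups, the 6 highest by CPM and by RPKM, the 5 largest relative changes each way, the members nearest the threshold, the 4 closest called head-to-head pairs and the 3 highest ratios of total gene reads to counts. Gene types and transcripts came from GENCODE M21 and promoters from RefSeq (GRCm38.p6), matched by identifier or symbol. Copies were found with megablast at 95% identity, and matches to genes overlapping at the same locus were kept. Alternatives were median-ratio scaling, library size alone, no filter, a stricter filter, DESeq2 1.42.0, limma-voom, a replicate block, limma-trend on log2 RPKM with 0.1 or 1 added, total gene reads, a positional correction, membership from 0.5 or 2 CPM, the other neighbour, a prior count of 0.5 and leaving out each library.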

Additional observations from a re-analysis of the deposited data

How the results depend on the processing

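With 2 libraries a group, 1 library moves the counts of calls. Leaving out each library in turn gave 51 to 85 members higher, 22 to 32 lower, 14 to 87 higher and 11 to 42 lower relative to the nearest named gene, and 26 to 43 TEC members higher and 2 to 8 lower. DESeq2 gave 40 members higher and 13 lower, and 20 TEC members higher and 1 lower. With no filter 36 TEC members were higher. The neighbour on the other side gave 48 members lower. Library size alone gave 128 members higher and 22 lower, and shifted the median of all genes to 0.07. The cause of these differences was not tested. Alternatives for TEC genes and other classes were chosen after seeing the data. Counts under the remaining alternatives were within 1.5 times those reported.

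The labels do not say that equal replicate numbers share anything, and same-numbered deviations correlated at 0.12 over 12478 genes. A replicate block gave 128 members higher and 39 lower, 105 higher and 55 lower relative to the neighbour, and 73 TEC members higher and 7 lower.

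Across the edgeR comparison's alternatives, 1 of the 125 called members changed sign: 2310033P09Rik, at -0.11 with total gene reads. Among the genes of the naming rule, values that were not called changed sign as follows. With library size alone, the log2 fold change was 0.0042 for 2310022B05Rik, 0.0369 for 5031439G07Rik, 0.0348 for 1810009A15Rik and 0.0510 for Gm4841. With the positional correction it was 0.2431 for 2310022B05Rik, which then passed the test, 0.0437 for 9530068E07Rik, -0.0390 for B230219D22Rik, -0.0725 for Gm14418, -0.1795 for 1110038F14Rik and 0.0465 for Gm4841. 1110038F14Rik was at -0.0165 with no filter and -0.0281 with total gene reads, where 3300002I08Rik was at 0.1985. Gm4841 was at 0.0030 with DESeq2, 0.0233 with the replicate block and 0.0063 with log2(RPKM + 1). Leaving out each library gave -0.4349 to 0.0101 for Gm49909, -0.0764 to 0.0131 for 5031439G07Rik, -0.1302 to 0.0641 for 1810009A15Rik, -0.0420 to 0.0458 for 1110038F14Rik, -0.2230 to 0.7496 for Gm38056, -0.4141 to 0.3228 for Gm4841 and -0.7375 to 0.1162 for 3300002I08Rik.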

Other observations

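Some called members outside the naming rule, chosen after their values were seen, add to the picture of copies. On chromosome 14, Gm7324, whose transcript matched the RNA-binding protein gene Rbmxl1 over 97.9% of its length, had 24 and 47 counts in Control and 80 and 79 in PM2.5 and rose by 1.34 (SE 0.24, edgeR adjusted p = 0.00151). Gm8126 and Gm5799, whose transcripts matched 1700049E17Rik1 at over 95% identity, rose by 0.75 and 0.86. Gm8126 lost its call without any 1 of the 4 libraries, and Gm5799 without Control replicate 1 or PM2.5 replicate 2. Gm37415, a TEC gene overlapping Sbno1, rose from 2.87 to 8.34 CPM (1.53, edgeR adjusted p = 6.9e-05), while Sbno1 had a log2 fold change of -0.05.

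TEC genes that were not members, by level or by name, but could be tested numbered 221. Of these, 20 rose (9.05%) and 2 fell (0.90%), against 19.2% and 20.4% of all genes tested. Their median log2 fold change was 0.41 at a median level of 0.66 CPM, and the highest level was 15.3 CPM.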
